A study of Mus musculus with 20 samples.

Results

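The genes described here are 9 components of the phosphoinositide 3-kinase (PI3K), AKT and FoxO pathway, namely Foxo1, Foxo3, Foxo4, Pik3ca, Pdpk1, Akt1, Akt2, Sgk1 and Tsc2, among 34937 Ensembl genes counted in single mouse 8C (8-cell) embryos at E2.5. They were picked by symbol, and the choice was made from the difference between maternal mutants and controls in these same embryos, so their values in that comparison are a description and carry no test. Of the 9 genes, 8 passed the filter on low counts, as did 11754 genes in all, and Foxo4 did not. The embryos were 9 Ehmt2Cntr and 10 Ehmt2Mat embryos, and control 4 was not analysed here. Ehmt2 encodes G9a, a histone methyltransferase that dimethylates lysine 9 of histone H3. Ehmt2Cntr embryos had Ehmt2F/+ mothers and received maternal G9a, and Ehmt2Mat embryos had Ehmt2F/- mothers and did not. Both kinds of mother carried Zp3-Cre, a recombinase driven by an oocyte promoter that removes the conditional Ehmt2 allele while the oocyte grows, so Cre and the recombined allele were not confined to the mutants. By their own zygotic genotype, 6 Ehmt2Cntr embryos were +/+ and 3 were +/-, whereas 5 Ehmt2Mat embryos were +/- (Ehmt2M/+) and 5 were -/- (Ehmt2M/Z). The maternal groups therefore also differed in zygotic genotype. Maternal and zygotic genotype cannot be told apart in that comparison except among +/- embryos. All embryos came from natural matings on a mixed background. Per the paper, only viable embryos were collected, and those sequenced did not differ in morphology between the groups. The paper also reports a mild developmental delay of Ehmt2Mat embryos at E2.5. Such a delay and other effects of the maternal genotype cannot be told apart here. Mother and litter are not given for any embryo, so a mother or litter and the maternal genotype cannot be told apart, and each p-value takes every embryo as an independent sample.

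PI3K, activated at the membrane by growth factor receptors, makes the lipid PIP3, to which PDK1 and AKT bind, and PDK1 then phosphorylates AKT and the related kinase SGK1. Active AKT and SGK1 phosphorylate FoxO transcription factors, which are then bound by 14-3-3 proteins and held in the cytoplasm. AKT also inhibits the TSC complex, a brake on the growth kinase mTORC1. When signalling is low, FoxO factors enter the nucleus and activate genes of cell cycle arrest, oxidative stress defence and apoptosis. In the mouse ovary, FOXO3 keeps primordial follicles dormant, and its transcript is carried in the oocyte.

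The total count per embryo was between 12985149 and 30053248 in Ehmt2Cntr and between 8231646 and 30602434 in Ehmt2Mat embryos. Levels are given as CPM (read counts relative to the library size, scaled by the TMM method), and 3 counts were worth 0.098 to 0.364 CPM. These limits cover counting error only. Ehmt2 itself was at 142 ± 59.7 CPM (SD, n = 9) in Ehmt2Cntr and 102 ± 32.7 CPM (n = 10) in Ehmt2Mat embryos, a difference that did not pass the test (edgeR quasi-likelihood, adjusted p = 0.233). Reads on exons outside the deleted part are counted too, so this does not check the labels. All 8 markers of preimplantation embryos had counts in both groups, whereas Has2, Ptx3, Fshr, Amh and Foxl2, 5 of 8 markers of cumulus or granulosa cells, had no count in any embryo, and the summed level of all 8 was at most 5.02 CPM in Ehmt2Cntr and 38.2 CPM in Ehmt2Mat embryos. The summed level of 4 oviduct epithelium genes was 0.0904 to 386 CPM in Ehmt2Cntr (median 2.56) and 9.68 to 2860 CPM in Ehmt2Mat embryos (median 104), most of it from Ovgp1, which encodes a glycoprotein secreted by the oviduct (mean 46.3 and 495 CPM). The part of these transcripts in the results below was not tested, and an analysis without the 6 embryos above 100 CPM, 1 control and 5 mutants, was added after seeing the data. The embryos kept in it still held up to 29.7 CPM in controls and 77.5 CPM in mutants. The 4 blood genes summed to at most 8.02 CPM in any embryo.

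Foxo3 showed the widest separation of the 9 genes. It lies on chromosome 10 (chr10:42181841-42276755, minus strand, GRCm38; ENSMUSG00000048756). The bases in front of its start, from RefSeq (GRCm38.p6, chr10:42276756-42276945, minus strand), are shown because it was the gene whose groups stood apart, and capitals mark the 28 CpG dinucleotides in its 190 bases.
Foxo3: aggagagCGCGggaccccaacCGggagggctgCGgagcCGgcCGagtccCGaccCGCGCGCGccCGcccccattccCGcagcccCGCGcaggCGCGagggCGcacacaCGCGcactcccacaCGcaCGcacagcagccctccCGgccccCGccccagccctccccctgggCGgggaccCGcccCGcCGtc
In controls, Foxo3 was at 49.95 CPM in the lowest embryo, 85.4 CPM in the median and 127.5 CPM in the highest. In Ehmt2Mat embryos the corresponding values were 18.1, 30.2 and 42.9 CPM. Every mutant was therefore below every control, which was the case, in this direction, for 0.179% of the genes tested (21 of 11754). Group means were 87.2 ± 22.1 CPM (SD, n = 9) and 30.3 ± 8.89 CPM (n = 10), a log2 fold change of -1.52 ± 0.22 (SE), or 2.87-fold lower. Because whole embryos were lysed, fewer cells with the transcript and less transcript per cell cannot be told apart. The log2 fold change lay between -1.59 and -1.44 when each of the 19 embryos was left out in turn, and it was -1.66 without the 6 embryos with the most oviduct transcripts. Among embryos of zygotic genotype +/- alone (3 controls and 5 mutants), it was -1.19 and no longer past the threshold.

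Foxo1 and Foxo4 encode the other FoxO factors on the list. Foxo1 was at 6.01, 51.9 and 71.5 CPM in the lowest, median and highest control and at 16.9, 31.1 and 67.0 CPM in the corresponding mutants. The groups overlapped, and controls 2 and 5, at 6.01 and 12.0 CPM, were below every mutant although the other controls were at 46.2 CPM or more. The log2 fold change of Foxo1 was -0.48 ± 0.36 (SE), and it was -0.13 without the 6 embryos with the most oviduct transcripts. Reads were counted without regard to strand, and 674 of the 8665 exonic bases of Foxo1 are shared with the antisense gene Gm20402, so some of these counts may belong to that gene. Foxo4, on the X chromosome, was close to the floor, with 0 to 81 counts in Ehmt2Cntr and 0 to 24 counts in Ehmt2Mat embryos. Its levels were 0.00 to 4.88 CPM in controls (median 0.587) and 0.00 to 1.34 CPM in mutants (median 0.446). It was not tested in this comparison, and no fold change is given.

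The make-up of the FoxO transcripts differed accordingly. Foxo3 took 65.1% ± 16.5 (SD, n = 9) of the summed counts of Foxo1, Foxo3 and Foxo4 in Ehmt2Cntr and 48.1% ± 11.0 (n = 10) in Ehmt2Mat embryos. The ranges, 48.1% to 93.8% and 32.2% to 64.0%, overlapped. With counts divided by exon length, the shares were 67.2% ± 15.9 and 50.8% ± 10.9. The highest shares in controls, 93.8% and 91.3%, were those of controls 2 and 5, in which Foxo1 was low.

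**Figure D1:**
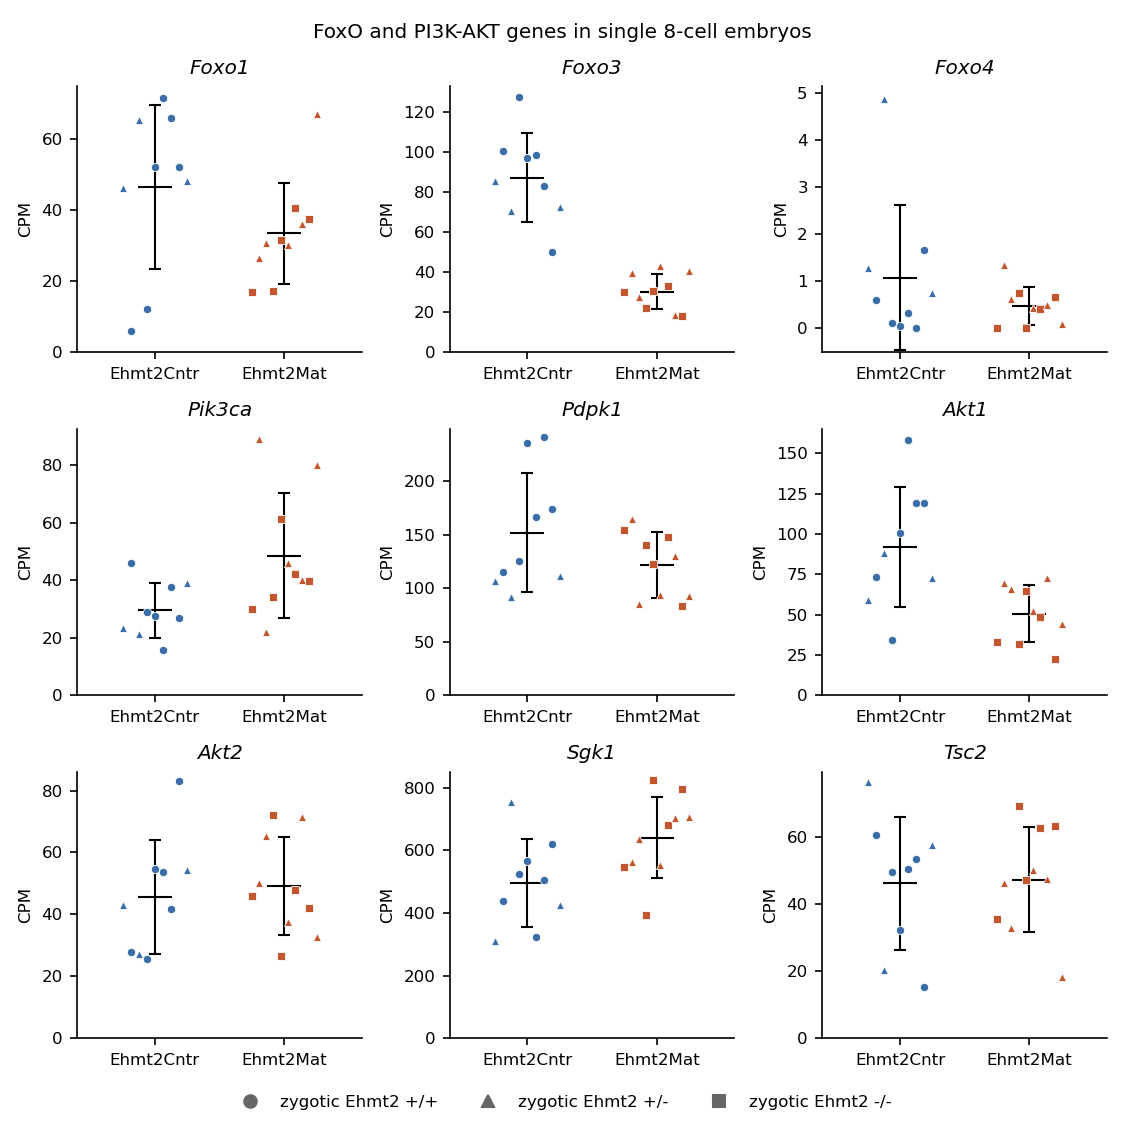
CPM of the 9 genes in each embryo (y axes, a separate scale per gene), with Ehmt2Cntr embryos in blue and Ehmt2Mat embryos in orange, the symbol giving the zygotic genotype and the black bars the mean and SD. Foxo3 is the gene whose groups do not overlap, with 49.95 to 127.5 CPM in controls and 18.1 to 42.9 CPM in mutants.

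Akt1 and Akt2 encode 2 of the AKT kinases, which act between PDK1 and the FoxO factors. Akt1 lies on chromosome 12 (chr12:112653821-112674884, minus strand, GRCm38; ENSMUSG00000001729). The 250 bases before its start, from RefSeq (GRCm38.p6, chr12:112674885-112675134, minus strand), are shown because Akt1 was called along with Foxo3 and because, of the 18 promoter windows searched for 8 of the 9 genes, it had the 1 that held a forkhead core motif. The other Akt1 window (chr12:112674227-112674526) did not hold it and had 42 CpG dinucleotides, beside 8 in the window with the motif. Capitals mark that motif, TGTTTAC on the strand shown and GTAAACA on the other.
Akt1: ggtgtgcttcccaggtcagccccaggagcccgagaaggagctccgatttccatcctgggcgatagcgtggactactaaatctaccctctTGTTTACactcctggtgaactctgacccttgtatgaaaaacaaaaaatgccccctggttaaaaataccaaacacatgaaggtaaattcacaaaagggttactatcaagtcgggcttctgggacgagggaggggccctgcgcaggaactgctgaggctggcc
Akt1 was at 34.35, 88.3 and 158 CPM in the lowest, median and highest control and at 22.4, 50.2 and 72.9 CPM in the lowest, median and highest mutant. All 10 mutants were below the median of the controls and 6 of the 9 controls were above every mutant, but the groups overlapped. Means were 91.6 ± 37.25 CPM (SD, n = 9) and 50.5 ± 17.7 CPM (n = 10), a log2 fold change of -0.86 ± 0.27 (SE), or 1.82-fold lower.

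The lower level of Akt1 passed the threshold of 0.05 narrowly, in the comparison from which the genes were chosen. The tally of alternatives is therefore a description. It was called in 14 of 31 alternative analyses, and the log2 fold change stayed below zero in all of them, between -1.09 and -0.29. Of these, 19 leave out 1 embryo each, and 8 of the 19 kept the call. The others kept it in 6 and lost it in 6. A prior count of 2, among those that kept it, cannot change the p-value. The call was lost when any one of 11 embryos was left out (controls 3, 6, 7, 8 and 9, and mutants 1, 4, 6, 7, 9 and 10), with values between -0.87 and -0.73. Without the 6 embryos with the most oviduct transcripts the value was -0.90 and not called, and among +/- embryos alone it was -0.29 and not called. Under a replicate block on embryo numbers it was -0.77 and not called.

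Akt2 did not follow Akt1. It was at 25.4, 42.9 and 83.2 CPM in the lowest, median and highest control and at 26.7, 46.8 and 72.2 CPM in the corresponding mutants. The ranges were almost the same, and the log2 fold change was 0.11 ± 0.26 (SE), or -0.019 without the 6 embryos with the most oviduct transcripts. Akt1 accordingly took 66.0% ± 8.37 (SD, n = 9) of the summed Akt1 and Akt2 counts in Ehmt2Cntr and 50.2% ± 12.0 (n = 10) in Ehmt2Mat embryos. The shares ranged from 57.2% to 76.4% in controls and from 30.7% to 70.8% in mutants, so the groups overlapped here as well. Per kb of exon the shares were 76.9% ± 6.54 and 63.1% ± 11.3.

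**Figure D2:**
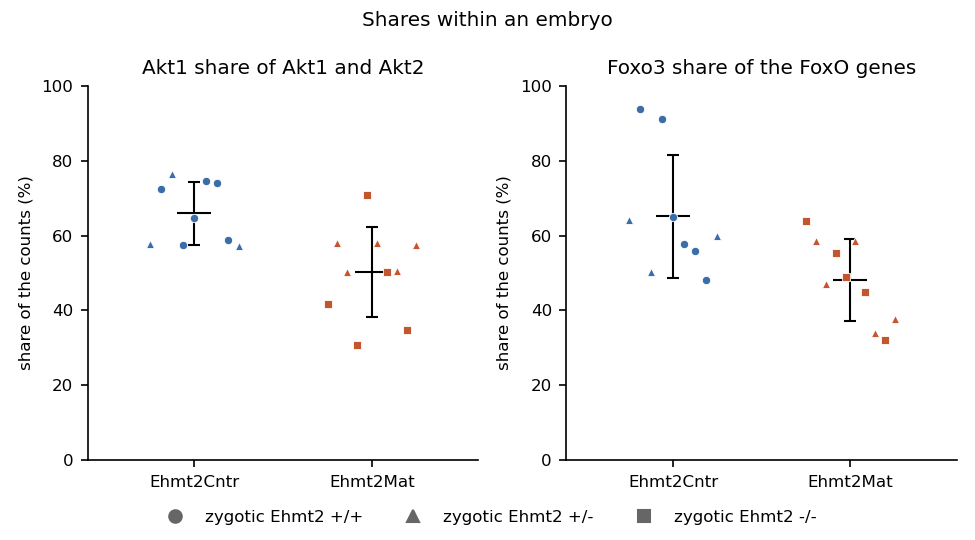
Share of the counts in each embryo (y axis, %) taken by Akt1 among Akt1 and Akt2 (left) and by Foxo3 among Foxo1, Foxo3 and Foxo4 (right), with bars for mean and SD and symbols for the zygotic genotype. Mean shares are 66.0% in Ehmt2Cntr and 50.2% in Ehmt2Mat embryos for Akt1 and 65.1% and 48.1% for Foxo3.

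Upstream of AKT, Pik3ca encodes the catalytic p110α subunit of PI3K. It was at 15.7, 27.5 and 46.0 CPM in the lowest, median and highest control and at 22.1, 41.2 and 89.1 CPM in the corresponding mutants. Of the 10 mutants, 9 were above the control median and 3 were above every control. The log2 fold change was 0.71 ± 0.28 (SE) and not called, here or in any of the 31 alternatives, whose values were between 0.57 and 0.97. Pdpk1, which encodes PDK1, was at 92.1, 125 and 241 CPM in controls and at 83.1, 126 and 164 CPM in mutants. Its medians were nearly equal and 4 controls were above every mutant, with a log2 fold change of -0.32 ± 0.21 (SE).

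Sgk1 encodes a kinase of the AKT-related SGK family that shares FoxO substrates with AKT. It was at 311, 506 and 754 CPM in the lowest, median and highest control and at 393, 660 and 826 CPM in the corresponding mutants. Of the 10 mutants, 9 were above the control median and 2 above every control, and the log2 fold change was 0.37 ± 0.18 (SE), not called. It was above zero in every one of the 31 alternatives, at 0.29 to 0.55. Tsc2, whose product tuberin is an AKT substrate in the TSC complex, was at 15.3, 50.5 and 76.5 CPM in controls and at 18.1, 47.5 and 69.4 CPM in mutants. Its ranges nearly coincided, the log2 fold change was 0.03 ± 0.29 (SE), and 578 of its 6018 exonic bases are shared with the antisense gene Pkd1.

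Over the 8 genes tested in the maternal comparison, 2 were called at an adjusted p of 0.05, Foxo3 and Akt1, both lower in Ehmt2Mat embryos. In the same comparison 9.35% of all genes tested were called, 4.37% higher and 4.98% lower, and since the 9 genes were chosen from this comparison nothing is read from their count. The median log2 fold change of the 8 genes was -0.14, against -0.04 for all genes tested. Log2 fold changes were above zero for 4 of the 8 (Pik3ca, Akt2, Sgk1 and Tsc2) and below zero for the other 4.

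**Figure D3:**
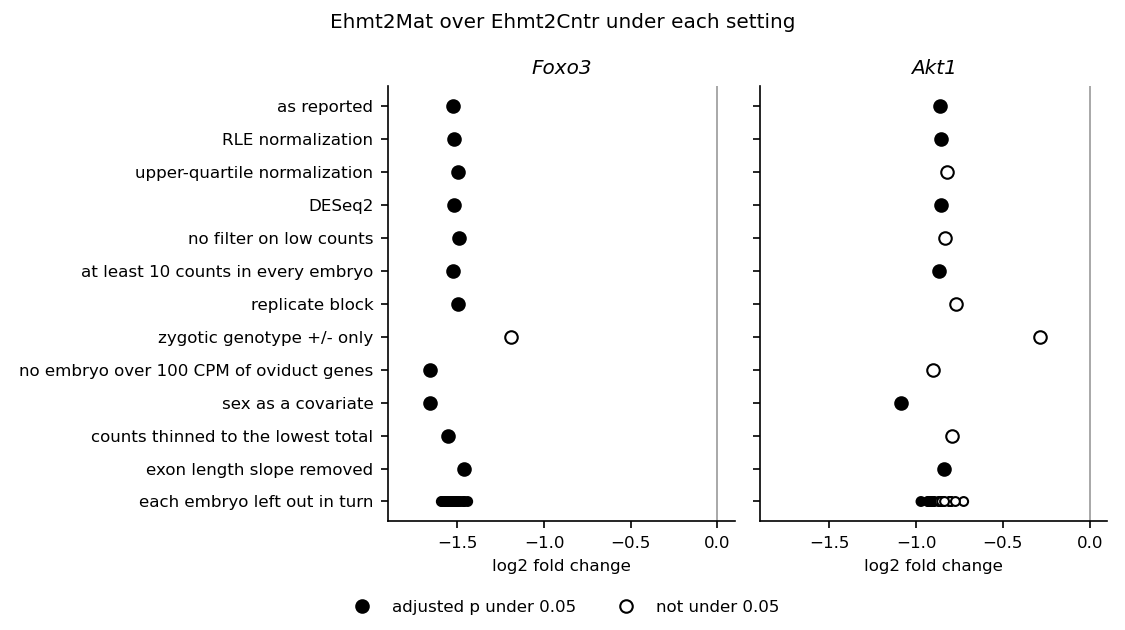
Log2 fold change (x axis) of Foxo3 and Akt1 in Ehmt2Mat over Ehmt2Cntr embryos under each analysis setting (y axis), filled where the adjusted p was under 0.05. Foxo3 lies between -1.66 and -1.19 and loses its call among +/- embryos alone, whereas Akt1 lies between -1.09 and -0.29 and is open for several settings and for 11 of the 19 left-out embryos.

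Levels of different genes were compared as RPKM (reads relative to exon length and library size), a measure that remains approximate because the amplification favours 3′ ends. In Ehmt2Cntr embryos Sgk1 was highest at 101 ± 28.8 RPKM (SD, n = 9), followed by Akt1 at 22.4 ± 9.09 and Pdpk1 at 13.9 ± 5.10 RPKM. Foxo3 came next at 11.5 ± 2.92 RPKM and Pik3ca was at 3.26 ± 1.06 RPKM. Only Sgk1 at the top and Foxo4 at the bottom, at 0.305 ± 0.442 RPKM, had ranges apart from those of their neighbours in this order, and Pdpk1 was above Foxo3 in 5 of 9 controls. In Ehmt2Mat embryos Sgk1 (131 ± 26.6 RPKM, n = 10) and Foxo4 (0.135 ± 0.116 RPKM) again stood apart. Foxo3, at 4.01 ± 1.17 RPKM, was the seventh of the 9 genes in mutants, next to Foxo1 at 3.85 ± 1.64 RPKM, and was the higher of these in 6 of 10 mutants. Akt1, at 12.3 ± 4.31 RPKM, was still second, but above Pdpk1 (11.1 ± 2.81 RPKM) in only 6 of 10 mutants, compared with 8 of 9 controls.

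The genes differed in how much they varied between embryos of a group. The biological coefficient of variation, the spread between embryos beyond counting noise, was 0.283 for Sgk1, and 2.71% of the genes tested had a lower one. It was 0.334 for Pdpk1 (10.0% of genes lower), 0.353 for Foxo3 (13.2%) and 0.416 for Akt1 (24.3%). Foxo1 had the highest of the 8 genes, 0.547, with 42.1% of genes below it. This spread includes any that came from the amplification, and the genes were not matched for level.

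The zygotic genotype was compared within each maternal group, a comparison that did not choose the genes. Of 12195 genes tested between Ehmt2M/Z and Ehmt2M/+ embryos (5 of each), edgeR called 0 (0% of genes; 270 at an unadjusted p under 0.05), and DESeq2 called 3. Of the 8 genes tested here, 0 were called by edgeR or DESeq2, and 0 had an unadjusted p under 0.05. The log2 fold changes of Ehmt2M/Z over Ehmt2M/+ ran from -0.60 ± 0.33 (SE) for Akt1 to 0.51 ± 0.34 for Tsc2, with an edgeR adjusted p of 0.9997 for each. In Ehmt2M/+ embryos Foxo3 was at 33.9 ± 10.3 CPM (SD, n = 5), compared with 26.8 ± 6.37 CPM (n = 5) in Ehmt2M/Z embryos, a log2 fold change of -0.34 ± 0.34 (SE). Akt1 was at 60.9 ± 12.3 CPM in Ehmt2M/+ and 40.0 ± 16.6 CPM in Ehmt2M/Z embryos.

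Among the controls, 3 embryos of genotype +/- were compared with 6 of genotype +/+. Of 12646 genes tested, edgeR called 0 (0% of genes; 572 at an unadjusted p under 0.05), and DESeq2 called 3. All 9 genes passed the filter here, and 0 were called by edgeR or DESeq2. The 1 gene with an unadjusted p under 0.05 was Pdpk1, with a log2 fold change of +/- over +/+ of -0.75 ± 0.32 (SE; edgeR p = 0.0328, adjusted p = 0.9998). It was at 92.1 to 112 CPM in the +/- and 115 to 241 CPM in the +/+ controls, so these groups did not overlap, which was the case, in this direction, for 1.19% of the genes tested (151 of 12646). Foxo3 was at 76.2 ± 8.00 CPM (SD, n = 3) in +/- and 92.7 ± 25.5 CPM (n = 6) in +/+ controls, a log2 fold change of -0.26 ± 0.33 (SE). Akt1 was at 73.3 ± 14.7 CPM in +/- and 101 ± 42.8 CPM in +/+ controls, a log2 fold change of -0.45 ± 0.42 (SE). Foxo4 had the widest value, 2.33 ± 1.72 (SE), from 22 to 81 counts in +/- and 0 to 28 counts in +/+ controls. These comparisons share embryos with the maternal one, so the values stand side by side and are not set against each other.

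**Figure D4:**
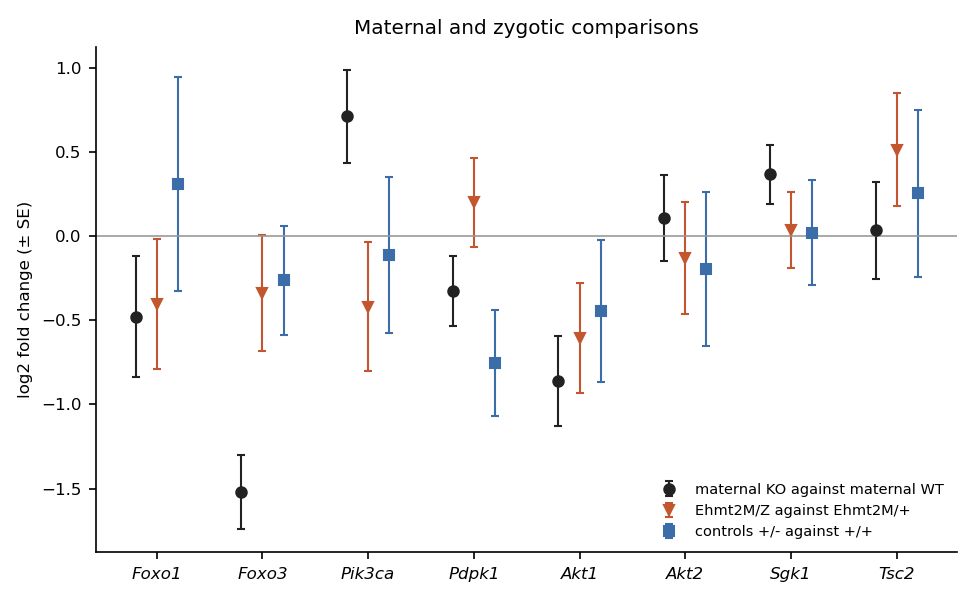
Log2 fold change and SE (y axis) of the 8 genes tested in every comparison, for maternal KO against maternal WT (black), Ehmt2M/Z against Ehmt2M/+ (orange) and +/- against +/+ controls (blue). Foxo3 is at -1.52 in the maternal comparison and at -0.34 and -0.26 in the zygotic ones.

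A wider list of 86 genes of the same pathway, which holds none of the 9, was examined in the maternal comparison, and 72 of them passed the filter. Of these, 10 were called, 1 higher (Prdx3) and 9 lower, or 13.9%, beside 9.35% of all genes tested. The median log2 fold change was -0.26 over the 72 genes and -0.04 over all genes. Log2 fold changes were above zero for 28 of the 72 and below zero for 44, beside 5600 and 6154 of the 11754 genes tested. Without the 6 embryos with the most oviduct transcripts 2 genes were called lower, Gsk3a and Eif4ebp1, and 0 higher, while the genes called among all genes went from 1099 to 321. Among +/- embryos alone 0 were called lower and 0 higher, beside 1 gene in all. In the counts by role below, each share called lower stands beside 4.98% of all genes tested. Each role holds few genes, so nothing is read from its count.

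At the top of the pathway, 1 of 6 receptors and adaptors tested fell (16.7%). This was Gab1, an adaptor that recruits PI3K to receptors, at 68.2 ± 33.6 CPM (SD, n = 9) in Ehmt2Cntr and 31.6 ± 15.7 CPM (n = 10) in Ehmt2Mat embryos (log2 fold change -1.11 ± 0.35 SE, adjusted p = 0.0436). The Gab1 call was kept in only 4 of the 19 analyses that leave out 1 embryo, those without control 1, control 10, mutant 4 or mutant 7. Grb2, the adaptor of receptor tyrosine kinases, was at 152 ± 50.8 and 144 ± 28.9 CPM and not called. The receptor Kit was at 5.82 ± 4.27 and 6.69 ± 5.66 CPM and not called. Of 9 other genes of PI3K family subunits tested 0 were called by edgeR. These 9 span the family and are not limited to the enzymes that make PIP3. The most abundant, Pik3c2a and Pik3c3, belong to other classes than Pik3ca and had log2 fold changes of 0.58 ± 0.33 and 0.25 ± 0.23 (SE). The median of the 9 was 0.28.

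Ppp2ca, which encodes a catalytic subunit of the phosphatase PP2A, one of those that act on AKT, fell from 374 ± 94.0 CPM (SD, n = 9) in controls to 205 ± 115 CPM (n = 10) in mutants (log2 fold change -0.87 ± 0.24 SE, adjusted p = 0.0252), and its call was lost without control 5, at -0.78. Of the exonic bases of Ppp2ca, 3093 of 7490 are shared with other genes, among them the antisense 9430098F02Rik. The PP2A scaffold Ppp2r1a was at 136 ± 32.1 CPM in controls and 204 ± 72.1 CPM in mutants, with a log2 fold change of 0.58 ± 0.20 (SE; adjusted p = 0.0723), and Ppp2cb was at 49.2 ± 44.8 and 32.2 ± 21.7 CPM, not called.

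Of 4 further AKT-family kinases and GSK3 genes tested, Gsk3a fell. It encodes GSK3α, a kinase that AKT inhibits, and was at 34.2 ± 16.7 CPM (SD, n = 9) in Ehmt2Cntr and 6.65 ± 2.895 CPM (n = 10) in Ehmt2Mat embryos. The ranges, 9.45 to 57.1 and 2.68 to 10.8 CPM, barely overlapped, and the log2 fold change was -2.36 ± 0.37 (SE; adjusted p = 0.000486). It was -2.49 to -2.23 with each embryo left out and was called in all 19 of these, as well as without the 6 embryos with the most oviduct transcripts. Among +/- embryos alone it was -2.22 and not called. Of its 2260 exonic bases, 542 are shared with the antisense gene 9130221H12Rik. The paralog Gsk3b had a log2 fold change of -0.68 ± 0.26 (SE; adjusted p = 0.0982) and Sgk3, of the SGK family, one of -0.35 ± 0.22 (adjusted p = 0.382).

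Of 14 genes of the mTOR complexes, their inputs and substrates tested, 2 (14.3%) fell. Deptor, an inhibitor bound to mTOR, was at 89.2 ± 30.6 CPM (SD, n = 9) in Ehmt2Cntr and 29.6 ± 18.5 CPM (n = 10) in Ehmt2Mat embryos (log2 fold change -1.59 ± 0.31 SE, adjusted p = 0.00237), with 303 of 8874 exonic bases shared with the antisense gene Gm9920. Eif4ebp1, the translational repressor 4E-BP1 that mTORC1 inactivates, was at 217.5 ± 105 and 103 ± 48.8 CPM (log2 fold change -1.08 ± 0.29 SE, adjusted p = 0.0216), and its call was lost without control 7, at -0.93. Akt1s1, which encodes the AKT substrate PRAS40, had a log2 fold change of -0.69 ± 0.23 (SE; adjusted p = 0.0555). Rheb, the GTPase that activates mTORC1, had one of -0.59 ± 0.25 (adjusted p = 0.152). Of 13 FoxO regulators tested, 1 (7.69%) fell, the 14-3-3 protein gene Ywhaz, at 140 ± 68.0 and 70.7 ± 24.3 CPM (log2 fold change -0.99 ± 0.28 SE, adjusted p = 0.0258). Its call was lost without control 3 or control 7, at -0.88 and -0.84. The more abundant 14-3-3 genes Ywhae (log2 fold change 0.30 ± 0.18) and Ywhab (-0.52 ± 0.18) were not called by edgeR. DESeq2 called Ywhab, at -0.51 (adjusted p = 0.0376), and of the genes above also Ppp2r1a, Gsk3b and Akt1s1.

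Of 18 listed FoxO target genes tested, 2 (11.1%) fell, Sod2 and Cat, and 1 rose, Prdx3. Sod2, mitochondrial superoxide dismutase, was at 238 ± 66.1 CPM (SD, n = 9) in controls and 155 ± 25.6 CPM (n = 10) in mutants (log2 fold change -0.62 ± 0.17 SE, adjusted p = 0.0211). Cat, catalase, was at 0.181, 7.42 and 47.5 CPM in the lowest, median and highest control and at 0.00, 0.576 and 5.19 CPM in the corresponding mutants. Its log2 fold change was -3.34 ± 0.99 (SE; adjusted p = 0.03385), which depends on the prior count because some mutants had 0 counts, and the call was lost without control 6 or 7 or mutant 4, 5, 6 or 9, at -3.27 to -2.77. Prdx3, a mitochondrial peroxiredoxin, rose from 92.5 ± 39.9 to 161 ± 52.6 CPM (log2 fold change 0.80 ± 0.24 SE, adjusted p = 0.0365). Its call was kept in 7 of the 19 analyses that leave out 1 embryo (control 9 or 10, or mutant 1, 2, 7, 8 or 10), and the value was 0.70 to 0.96 over all 19. The stress and arrest genes Cdkn1a (0.14 ± 0.41) and Sesn1 (-0.16 ± 0.30) were not called.

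**Figure D5:**
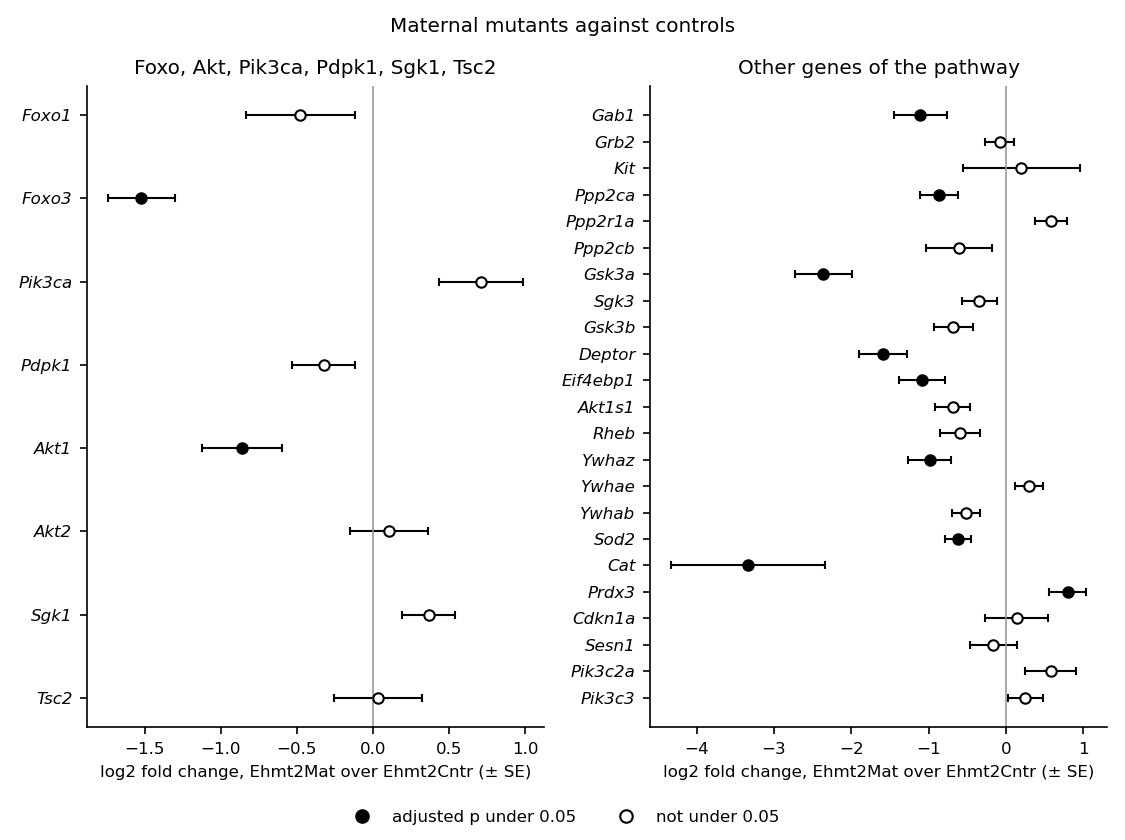
Log2 fold change and SE (x axis) in Ehmt2Mat over Ehmt2Cntr embryos for 8 of the 9 genes (left) and for the named genes of the wider pathway list, in the order of their roles (right), filled where the adjusted p was under 0.05. Foxo3 (-1.52) and Akt1 (-0.86) are filled on the left, and Gsk3a (-2.36) and Cat (-3.34) lie farthest from zero on the right.

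In the 2 zygotic comparisons the wider list gave no call by edgeR or DESeq2. Between Ehmt2M/Z and Ehmt2M/+ embryos 72 of its genes were tested, 0 were called, and 4 had an unadjusted p under 0.05, beside 270 of 12195 genes in all. These 4, named after their values were seen like those of the next comparison, were lower in Ehmt2M/Z embryos, namely Ywhaz (51.6 and 88.4 CPM), Eif4ebp1 (73.0 and 131 CPM) and the FoxO targets Bcl2l11 (25.8 and 53.2 CPM) and Txnip (6.60 and 27.9 CPM). Between +/- and +/+ controls 75 were tested, 0 were called and 4 had an unadjusted p under 0.05, beside 572 of 12646 genes in all. Mean levels in +/- and +/+ controls were 167 and 338 CPM for Sgk3, 86.8 and 32.4 CPM for Eif4ebp2, and 4.84 and 0.126 CPM for Ccnd2. Cdkn1a, which encodes the cell cycle inhibitor p21, had mean levels of 107 and 26.7 CPM in +/- and +/+ controls. Its log2 fold change was 2.04 ± 0.51 (SE; edgeR p = 0.00148, adjusted p = 0.9998).

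Deviations of log2 CPM from the mean of each group were compared across the 19 embryos as a description of which genes varied together, with the libraries and their depth shared by all genes. Among the 8 genes with a mean of at least 10 CPM the Pearson correlations were low to moderate. The highest was 0.473 between Foxo1 and Akt1, and the lowest were -0.580 between Sgk1 and Tsc2 and -0.555 between Foxo3 and Akt2. For Foxo3 and Akt1, the genes called, it was -0.0356. The genes most like each were then taken as the highest of 7493 correlations over 19 embryos. How high unrelated genes would reach was not tested, so nothing is read from these pairs. Those most like Foxo3 were Tbl1xr1 (0.756) and Sf3b1 (0.738), and those most like Akt1 were Gpsm1 (0.846) and Fnbp1 (0.813). Foxo1 was most like Poglut1 (0.881) and Faf1 (0.822), and Pik3ca most like Zbtb44 (0.791) and Tmed5 (0.782). Pdpk1 varied most like Rbm25 (0.836) and Baz1a (0.811), Akt2 like Ptpa (0.788) and Dram2 (0.752), Sgk1 like Usp37 (0.762) and Smurf2 (0.741), and Tsc2 like Pygl (0.819) and Armc5 (0.790).

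The forkhead core motif GTAAACA, to which FoxO factors can bind, was searched on both strands in RefSeq promoter windows of 250 bases before and 50 after each start. It was present in 3.65% of all 32851 windows. Windows matched 8 of the 9 genes, 18 windows in all, and 1 of the 18 held it, the upstream Akt1 window shown above, 161 bases before the start. Of 25 windows of 19 listed FoxO target genes, 5 held it, those of Bcl2l11, Txnip, Trim63, Bbc3 and Sesn1, named here because the search found them. Trim63 did not pass the filter on low counts. Over the wider list 9 of 90 windows held the motif. Windows matched 6 called genes of that list, Sod2, Cat and Prdx3 among them, and 0 of the 6 had it. A match is a run of letters and not a bound site.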

How the data were processed

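RNA of single 8C embryos at E2.5 was amplified as cDNA by a 3′-biased protocol and sequenced as single-end 50 bp reads (9 Ehmt2Cntr and 10 Ehmt2Mat embryos). The authors deposited raw counts per Ensembl gene (release 82, GRCm38), made per the file headers with featureCounts 1.5.0 on exons, with at least 10 overlapping bases, reads assigned to all overlapping genes, multi-mapping reads kept and no strand option. The aligner is not named in these headers; the submitters' processing notes list TopHat2, featureCounts and DESeq2. Such counts can give overlapping genes each other's reads.

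From these counts, edgeR 4.0.16 (R 4.3.3) was run with its filter on low counts, TMM normalization and the quasi-likelihood test, for 3 comparisons (maternal; zygotic within each maternal group), with Benjamini-Hochberg adjustment over all genes tested and a threshold of 0.05. Fold changes use a prior count of 0.125, and their SE comes from the quasi-likelihood F statistic. Symbols matched 34599 of 34937 genes. No 2 embryos had identical counts, and the highest correlation of 2 embryos was 0.971. The scripts were tested on simulated data. The genes and lists were chosen with earlier results of these data known. Named were the 9 genes, Ehmt2, each called pathway gene, the 2 most abundant of the rest in each role, and the 2 genes most like each of the 9 with a mean of at least 10 CPM. The alternatives tried were DESeq2 1.42.0, normalization by RLE or the upper quartile, no filter or a minimum of 10 counts in all embryos, a replicate block on embryo numbers, +/- embryos alone, a sex term (male where Y-linked genes exceeded 1 CPM), thinning to the lowest total, removal of the slope on exon length, a minimum log2 change of 1 in size, a prior count of 2, shares per kb and each embryo left out. Chosen after seeing the data was the removal of embryos above 100 CPM of oviduct genes. An item of the wider list is included in its counts but is not reported here by name. Transposable elements were not analysed here.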

Additional observations from a re-analysis of the deposited data

Results flagged for a closer look

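In 18 groups of values (9 genes in 2 groups), the highest or lowest embryo was compared with the gap to its nearest neighbour, and 3 embryos stood apart from their group by Dixon's criterion at 95%. Chance flags about 1 in 20 groups. Foxo1 was at 67.0 CPM in Ehmt2Mat embryo 10, and the next highest mutant was at 40.4 CPM. Foxo4 was at 4.88 CPM in Ehmt2Cntr embryo 3, and the next control was at 1.66 CPM. Akt2 was at 83.2 CPM in Ehmt2Cntr embryo 9, and the next control was at 54.6 CPM.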

How the results depend on the processing

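In the maternal comparison 1099 genes were called in all, 2 of the 8 tested genes of the set, and 1 higher and 9 lower of the wider list. These counts were 884 to 1262, 1 to 2, 0 to 2 and 6 to 12 with each embryo left out in turn. DESeq2 gave 1775 in all, 2 higher and 16 lower. The embryo number as a replicate block gave 693 in all, 1 of the set, 0 higher and 5 lower. Among +/- embryos alone there was 1 in all, and 0 in each list. Requiring a log2 change of 1 or more in size left 667 in all, 1 of the set, 0 higher and 5 lower. Without embryos above 100 CPM of oviduct genes there were 321 in all, 1 of the set, 0 higher and 2 lower. Upper-quartile normalization and thinned counts each left 1 of the set, no filter on low counts left 1 of the set and 2 higher, and removal of the length slope left 0 higher. Where 1 of the set was left it was Foxo3. The embryos without which the list had 0 higher are controls 1, 2, 3, 5, 6, 7 and 8 and mutants 3, 4, 5, 6 and 9, and without mutant 10 it had 2. No filter on low counts moved the median of all genes to 0.13, from -0.04. The other causes were not tested. The fits with +/- embryos and without embryos above 100 CPM of oviduct genes hold fewer embryos, and their estimates moved as well. Among +/- embryos Akt1 was at -0.29 (from -0.86) and Sod2 at -0.78 (from -0.62). In the zygotic comparisons DESeq2 called 3 genes in each, and edgeR called 0 with each embryo left out, except 1 among controls without control 10.

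Some log2 fold changes that were not called changed sign, and none of the reversed values was called. In the maternal comparison these included Tsc2 (-0.42 among +/- embryos, -0.020 with sex as a covariate, -0.078 to 0.15 with each embryo left out). Others were Pdpk1 (0.11 among +/- embryos) and Akt2 (-0.019 without embryos above 100 CPM of oviduct genes). Kit was reversed too (-0.019 with the replicate block, -0.72 among +/- embryos, -0.13 to 0.45 left out). So was Cdkn1a (-0.85 among +/- embryos, -0.0044 without embryos above 100 CPM of oviduct genes, -0.0072 to 0.58 left out). The rest were Grb2 (0.033 with sex, -0.16 to 0.013 left out), Sesn1 (0.033 among +/- embryos, -0.30 to 0.026 left out), Ppp2cb (0.28 among +/- embryos) and Sgk3 (0.40 among +/- embryos). Between Ehmt2M/Z and Ehmt2M/+ they were Sgk1 (-0.047 with sex, -0.059 to 0.17 left out) and Akt2 (-0.34 to 0.030 left out). Between +/- and +/+ controls they were Sgk1 (-0.016 without a filter, -0.21 with sex, -0.012 thinned, -0.41 to 0.25 left out), Akt2 (-0.47 to 0.044), Pik3ca (-0.48 to 0.053) and Tsc2 (-0.15 to 0.63), each left out.

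The replicate block also ended the calls of Akt1 (-0.77), Gab1, Ywhaz, Sod2, Cat and Prdx3. Embryo numbers are shared between the groups in the labels. Of 9 same-numbered pairs, 0 had deviations correlated above 0.1 (mean 0.012), and 1 mutant correlated best with the control of its own number. These correlations over all genes showed no pairing. A weak pairing, or one limited to some genes, was not tested. By the Y-linked genes 5 of 9 controls and 9 of 10 mutants were male, and with sex as a covariate the call of Gab1 was lost (-1.11, edgeR adjusted p = 0.0623) while Akt1s1 was called (-0.82, adjusted p = 0.0219).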
